A study of Mus musculus with 9 samples.

Results

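The comparison described here sets mouse embryonic stem cells (ESCs) without DNMT1 beside wild-type (WT) ESCs on day 2 of differentiation, with RNA-seq. DNMT1 is the maintenance DNA methyltransferase, which copies CpG methylation to the newly made strand after replication. The WT cells are J1 ESCs, a line of male mouse origin, and the knockout (1KO) cells are Dnmt1-/- ESCs derived from J1. Both were kept on mitomycin C-treated mouse embryonic fibroblast feeders in serum with LIF. For differentiation the feeders were first depleted by letting them settle on gelatin, and the cells were then grown as embryoid bodies without LIF and afterwards allowed to attach, with no added inducer of a lineage. 2 libraries of polyadenylated RNA were compared, 1 from WT and 1 from 1KO cells, out of 9 in the series, which also hold days 0 and 4 and another line, 1KO+1CI. The 1KO+1CI cells are 1KO ESCs with a CAG-driven transgene for catalytically inactive DNMT1 and were isolated as transgenic clones. There is no replicate culture of any line on any day, so differences could not be set against the spread between cultures and nothing was tested.

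DNA methylation at CpG-rich germline gene promoters, at imprinting control regions and at long terminal repeat (LTR) retrotransposons is known to hold those sequences silent in ESCs and their derivatives. Intracisternal A particles (IAPs), which are young endogenous retroviruses, are the best known of the repeats that depend on DNMT1. Early differentiation of mouse ESCs takes naive cells through a formative state that resembles the epiblast around implantation, and Lef1, Fgf5, Pou3f1 and the de novo methyltransferases Dnmt3a and Dnmt3b are commonly used to mark it.

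Levels are FPKM as the authors deposited them, that is read fragments scaled to the length of a transcript or repeat copy and to the counted reads of its library. A difference is 1KO minus WT in log2(FPKM + 1), which understates the change of low genes. It was called when it passed 1 or -1 in a gene with at least 1 FPKM in either library. The table gave 15074 usable genes, of which 12211 had that level. If 1 step of the FPKM values is 1 read, the WT library held about 24400000 counted reads and the 1KO library about 21000000. Neither table lists a 0 in any of the 9 libraries, so a gene wholly silent in WT cells cannot be seen here. Day 2 in the 1KO line was therefore read beside 1KO minus WT at days 0 and 4, which use other libraries, and beside the 1KO+1CI library of day 2, which is compared with the same WT library.

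Dnmt1 itself, on chromosome 9 (20907206 to 20959888, GRCm38.p6), was at 80.4 FPKM in WT and 17.4 FPKM in 1KO cells on day 2, a difference of -2.15. It was lower in 1KO cells on the other days too, at 13.7 against 74.0 FPKM on day 0 and 12.3 against 48.5 FPKM on day 4. The transgenic 1KO+1CI cells had 129 FPKM on day 2. A value over the whole gene does not show which exons the remaining 1KO reads come from. Of the other methyltransferase genes, the de novo enzymes Dnmt3b and Dnmt3a and their cofactor Dnmt3l were higher in 1KO cells without passing 1. Dnmt3b was at 115 FPKM in WT and 224 FPKM in 1KO cells, Dnmt3a at 32.8 and 51.8 FPKM, and Dnmt3l at 144 and 286 FPKM, with differences of 0.96, 0.64 and 0.99. Uhrf1, which brings DNMT1 to hemimethylated DNA, differed by 0.20. Dppa3, which hinders UHRF1 and is also counted among naive genes, was the 1 of 17 methyltransferase and cofactor genes called higher, at 9.68 FPKM in WT and 20.8 FPKM in 1KO cells. The TET and base excision genes, which remove methylated cytosine, gave no call among 13, with Tet1 at -0.25 and Tet2 at -0.76.

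On day 2, 241 of the 12211 genes (1.97%) were higher in 1KO cells by over 1 and 100 (0.819%) were lower by over 1. The median difference over all of them was -0.01, and 83.4% of them lay within 0.5 of 0. At the edge of the call, H3f3c at 1.01 was inside and Nxf7 at 1.00 just outside, and among falls Zfp319 (on chromosome 8, 4.52 FPKM in WT and 1.76 FPKM in 1KO cells) was just inside and Sirt5 (2.76 and 0.88 FPKM) just outside. Higher calls were most frequent at low levels but not at the lowest. Of genes with a mean of 1 to 5 FPKM over both libraries 3.41% were higher and 1.18% lower, against 0.783% and 0.326% of genes over 25 FPKM. Of the 336 tested genes with a mean under 1 FPKM, 1.79% were higher and 1.19% lower. Of the 241 higher genes, 78 were under 1 FPKM in WT cells.

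**Figure D1:**
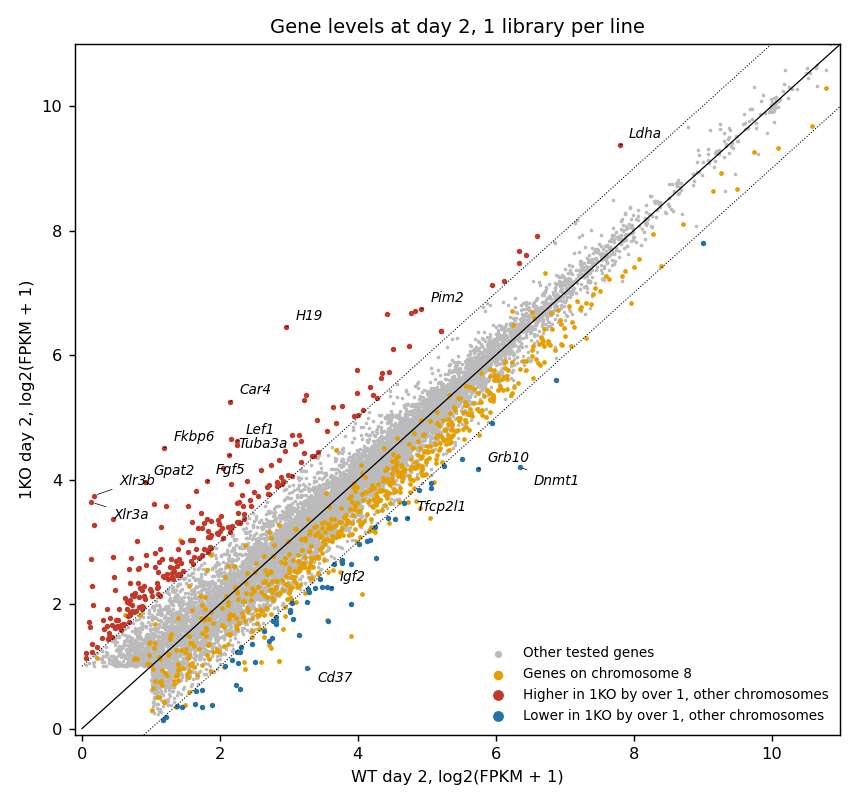
Level of each tested gene on day 2 in WT (x axis) and 1KO cells (y axis), both as log2(FPKM + 1), with 1 library per line and 1 point per gene. The solid line marks equal levels and the dotted lines a difference of 1 or -1. Xlr3b, H19 and Fkbp6 lie far above the upper line, Dnmt1 lies below the lower one, and the genes of chromosome 8 in orange sit mostly under the line of equal levels.

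One chromosome stood apart and bears on the lower genes. The 685 tested genes on chromosome 8 had a median difference of -0.51 (quartiles -0.67 and -0.30) and a median FPKM ratio of 1KO to WT of 0.675, and 620 of them (90.5%) were below 0. The medians of the other 18 autosomes and of chromosome X ran from -0.03 to 0.04. On days 0 and 4 chromosome 8 gave median ratios of 0.679 and 0.679, in other libraries of the same lines. The shift ran along the whole chromosome, since the medians of its 9 windows of 15 Mb, each with 29 to 128 genes, were all between -0.56 and -0.41. The 1KO+1CI library differed from 1KO on chromosome 8 by a median of -0.01 on day 2. Chromosome 8 held 5.61% of the tested genes but 35 of the 100 lower genes and only 2 of the 241 higher ones. Without its genes, 239 were higher and 65 lower. When its median was subtracted from its genes, 12 of them were higher and 7 lower by over 1. Gain of whole chromosomes is a known change of cultured mouse ESCs, but the number of chromosomes in these lines was not measured here and its part in these values was not tested. Genes on chromosome 8 are therefore marked where they are named, but not every member of a list is named. List medians include members on chromosome 8 unless stated.

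**Figure D2:**
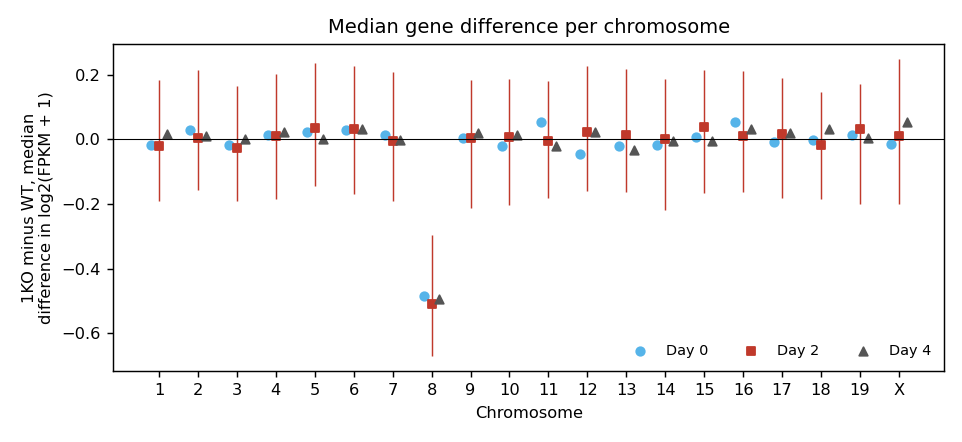
Median difference in log2(FPKM + 1), 1KO minus WT, over the tested genes of each chromosome on days 0, 2 and 4, with the quartiles of day 2 as vertical lines. Chromosome 8 is near -0.5 on all 3 days, with -0.51 on day 2, and every other chromosome shown is within 0.1 of 0.

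Of the 15 genes with the largest rise, 7 were under 1 FPKM in WT cells and 6 lie on chromosome X. The X-linked Xlr3b, a lymphoid-regulated family member that is imprinted in brain, was at 0.13 FPKM in WT cells, against 12.4 FPKM in the 1KO and 14.7 FPKM in the 1KO+1CI library. Its neighbour Xlr3a was at 0.10 FPKM, 11.4 FPKM and 13.9 FPKM in the same order. Both were thus near silent in WT cells and well above 10 FPKM in each mutant library, with differences of 3.57 and 3.50. In whole reads Xlr3b had 5 in WT and 419 in 1KO cells, a depth-corrected ratio of 97.2 (exact 95% Clopper-Pearson interval 41.3 to 301). Such intervals cover counting error only. Xlr3a had 2 and 197 reads. The pair are near-identical copies, so reads may be split between them.

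H19, a long noncoding RNA transcribed from the maternal allele on chromosome 7 (142575530 to 142578146), was at 6.80 FPKM in WT, 86.7 FPKM in 1KO cells and 87.9 FPKM with 1KO+1CI. Fkbp6, a piRNA pathway co-chaperone, was at 1.29, 21.8 and 24.6 FPKM. Gpat2, an acyltransferase of the testis that takes part in piRNA production, had 0.88 FPKM in WT and 14.6 FPKM in 1KO cells. Nxf3, an X-linked RNA export factor of the testis, had 0.36, 9.38 and 9.37 FPKM. All of these were higher by over 1 on days 0 and 4 as well, and 11 of the 15 genes with the largest rise were. The other 4 of the 15 passed 1 at fewer days. Taf7l and Lef1 did so on day 0, Car4 on day 4 and Cthrc1 on neither. Car4, a membrane-bound carbonic anhydrase, was at 3.43 FPKM in WT and 37.2 FPKM in 1KO cells, a difference of 3.11 against 0.09 on day 0. Cthrc1, a secreted collagen-repeat protein, was at 1.33 and 10.9 FPKM. The rest of the 15 were Efhc2 (3.10), the serpin Serpina3m (2.59), Plac8 (2.57), Mir675 (2.49), whose hairpin lies within H19 and shares its reads, and Pnma5 (2.30). Chromosome X held 3.55% of the tested genes and 29 of the 241 higher ones.

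Many germline genes were higher in 1KO cells. Of 67 genes in the table from a list of piRNA and RNA-binding factors and a list of meiosis and spermatogenesis genes, 49 were tested and 22 of these (44.9%) were higher by over 1, against 1.97% of all tested genes, with 1 lower. That share is raised by genes that passed the minimum through 1KO cells alone, and over all listed genes it was 22 of 67. Both lists were chosen with earlier results of these data known. Over the piRNA and RNA-binding list, 7 of 20 tested genes were higher, and the median of its 27 members was 0.23. Besides Fkbp6 these were Dazl, an RNA-binding protein needed for germ cell development, at 2.30 FPKM in WT and 10.0 FPKM in 1KO cells, Rnf17 at 6.69 and 21.0 FPKM, Mael at 2.57 and 8.03 FPKM, Stk31, Mov10l1 and Gtsf1. The core piRNA binders differed less, with Piwil2 at 0.63 and Piwil4 at 0.41, and Ddx4, the VASA helicase, at 0.47. Nanos3, which is on chromosome 8, was the 1 gene lower, at 4.17 FPKM in WT and 0.94 FPKM in 1KO cells.

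Over the meiosis and spermatogenesis list, 15 of 29 tested genes were higher and 0 lower, and the median was 0.49 over its 40 members and 1.05 over the tested ones, which include those that passed the minimum through 1KO cells alone. With pseudocounts of 0.1 and 0.01 the median over all members was 0.84 and 0.87. Without its 4 members on chromosome 8 the median was 0.68. Taf7l, a germ cell TFIID subunit, had 0.36 FPKM in WT and 5.76 FPKM in 1KO cells, from 17 and 233 reads, a ratio of 15.9 (exact 95% interval 9.71 to 27.7). Tuba3a, a testis tubulin, had 3.39 and 19.9 FPKM, and the X-linked deubiquitinase gene Usp26 had 0.74 and 7.06 FPKM. Components of the meiotic chromosome axis and synaptonemal complex were among them. Smc1b, a meiotic cohesin subunit, had 0.78 and 4.97 FPKM, Hormad1 2.53 and 9.35 FPKM, Syce3 1.08 and 6.06 FPKM, Syce1 3.76 and 11.3 FPKM. Other parts of the same structures were near equal in both libraries, with Sycp1 at 0.06, Sycp3 at 0.04 and Rec8, the lowest of the list, at -0.25. Of the 22 germline genes higher on day 2, 16 were also higher by over 1 on day 0, 8 on day 4 and 6 on all 3 days. Dazl gave -0.01 on day 4 and Hormad1 0.12.

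The promoters of the 5 germline, imprinted, Rhox or Xlr genes with the largest rise that have an entry in the RefSeq promoter table are printed because CpG sites are the substrate that DNMT1 acts on. Each holds 250 bases before and 50 after the start (GRCm38.p6), and capitals mark the CpG sites. That of Xlr3b (chrX:73191929-73192228, plus strand) has 7, Xlr3a (chrX:73097046-73097345, minus strand) 5, Fkbp6 (chr5:135349995-135350294, minus strand) 21, Taf7l (chrX:134476441-134476740, minus strand) 17 and Tuba3a (chr6:125286032-125286331, minus strand) 12.
promoter of Xlr3b: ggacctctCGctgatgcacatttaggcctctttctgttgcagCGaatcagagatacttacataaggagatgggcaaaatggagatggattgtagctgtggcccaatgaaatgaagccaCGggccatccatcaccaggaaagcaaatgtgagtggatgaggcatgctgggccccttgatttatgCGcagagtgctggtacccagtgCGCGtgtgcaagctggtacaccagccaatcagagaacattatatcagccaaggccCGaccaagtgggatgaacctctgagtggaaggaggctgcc
promoter of Xlr3a: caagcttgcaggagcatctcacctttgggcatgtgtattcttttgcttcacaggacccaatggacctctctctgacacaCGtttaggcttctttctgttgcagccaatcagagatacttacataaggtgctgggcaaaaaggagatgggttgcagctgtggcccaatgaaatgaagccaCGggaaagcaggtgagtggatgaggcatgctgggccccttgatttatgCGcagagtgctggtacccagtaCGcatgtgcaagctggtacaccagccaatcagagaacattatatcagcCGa
promoter of Fkbp6: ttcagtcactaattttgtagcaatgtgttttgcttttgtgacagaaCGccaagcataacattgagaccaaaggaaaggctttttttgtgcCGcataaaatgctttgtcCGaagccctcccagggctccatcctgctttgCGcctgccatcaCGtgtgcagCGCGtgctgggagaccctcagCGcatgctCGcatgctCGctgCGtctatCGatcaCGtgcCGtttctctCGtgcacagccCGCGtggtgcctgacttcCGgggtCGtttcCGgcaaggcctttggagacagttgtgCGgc
promoter of Taf7l: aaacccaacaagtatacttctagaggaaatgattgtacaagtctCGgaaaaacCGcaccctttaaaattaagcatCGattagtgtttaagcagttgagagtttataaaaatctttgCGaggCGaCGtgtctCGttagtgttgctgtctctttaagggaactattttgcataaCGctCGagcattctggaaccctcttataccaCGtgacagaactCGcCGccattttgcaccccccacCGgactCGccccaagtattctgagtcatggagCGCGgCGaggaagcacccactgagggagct
promoter of Tuba3a: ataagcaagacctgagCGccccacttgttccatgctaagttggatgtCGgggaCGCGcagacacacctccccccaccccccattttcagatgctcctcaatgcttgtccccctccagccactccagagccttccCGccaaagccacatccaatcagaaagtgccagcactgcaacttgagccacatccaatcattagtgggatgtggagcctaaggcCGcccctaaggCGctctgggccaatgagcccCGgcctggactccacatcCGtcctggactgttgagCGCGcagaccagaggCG

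The Xlr3a and Xlr3b promoters shared 223 of 237 locally aligned bases (94.1%). Over the 9554 tested genes with a RefSeq promoter the median number of CpG sites was 21. It was 15 over the 164 higher genes with a promoter, 10 over the 30 higher on all 3 days, and 19 over the 44 germline genes. Lower genes had few CpG sites too, with a median of 15 over 59, and of 11 over the 40 of them off chromosome 8. The letters CACGTG, the E-box to which MAX binds and which reads alike on both strands, were searched because MAX-containing complexes are known to silence germline genes in ESCs. They occurred in 10.9% of the tested genes' promoters and in 7.24% of all 27025 genes with a promoter in the table. Of the 44 germline promoters 15 (34.1%) held them, with 9 of the 20 higher genes and 6 of the 24 others. Fkbp6 has 2 such sites and Taf7l 1, where the middle of the motif stands in capitals above, and Xlr3a, Xlr3b and Tuba3a have none. The E2F core TCCCGC, on either strand, occurred in 37.3% of the tested genes and in 21 of the 44 germline genes (47.7%). Of the higher germline genes 7 of 20 (35.0%) held it, and of the others 14 of 24 (58.3%). Methylation was not measured in these libraries, and a match is a description of the letters only.

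Imprinted genes, which are expressed from 1 parental allele under the control of germline methylation marks, moved in both directions. Of 48 tested, 11 (22.9%) were higher and 2 lower, against 1.97% and 0.819% of all tested genes. Paternally expressed genes had a median of 0.58 over 31 members, with 8 of 26 tested genes higher and 1 lower. Nnat, a small membrane protein of neural and endocrine cells, was at 8.28 FPKM in WT and 37.9 FPKM in 1KO cells. Peg3, a zinc-finger protein, was at 12.7 and 35.3 FPKM, and Snrpn, a splicing protein, at 79.9 and 204 FPKM. Snurf, which shares transcripts and reads with Snrpn, rose by 1.32. Magel2, Plagl1, Peg10 and Inpp5f rose by 1.35, 1.20, 1.17 and 1.08. Maternally expressed genes had a median of 0.04 over 25 members, with 3 of 22 tested genes higher, namely H19, Ascl2 and Mirg, and 1 lower.

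The lower genes were Igf2 and Grb10, with opposite alleles expressed. Igf2, a paternally expressed growth factor beside H19 under the same control region, was at 11.2 FPKM in WT, 3.78 FPKM in 1KO cells and 4.38 FPKM with 1KO+1CI, a difference of -1.35 while H19 rose by 3.49. The same opposite pair was seen on day 0 (3.26 and -1.14) and day 4 (4.37 and -2.04). Grb10, a growth factor receptor adaptor, was at 52.7, 17.0 and 16.5 FPKM, and differed by -1.46 on day 0 and -3.15 on day 4. Cdkn1c and Phlda2, maternally expressed growth restrainers of 1 cluster on chromosome 7, were at -0.91 and -0.65 on day 2 and at -3.00 and -2.01 on day 4. The direction of these members was the same on all 3 days, whereas Nnat was at -0.04 on day 0.

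**Figure D3:**
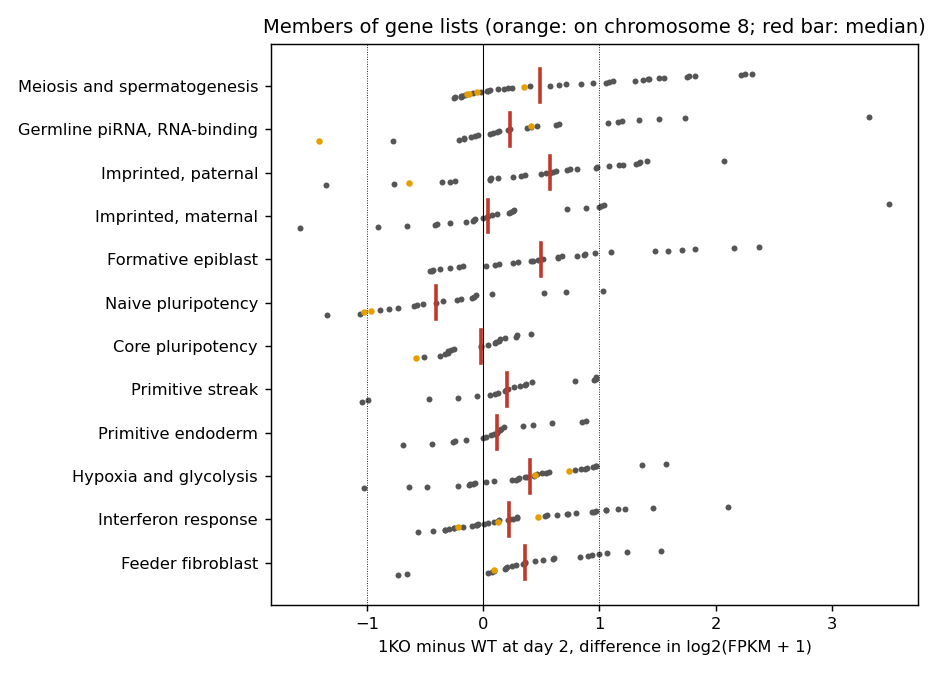
Differences on day 2, 1KO minus WT in log2(FPKM + 1), of the members of 12 gene lists, with 1 point per gene, members on chromosome 8 in orange and the list median as a red bar. Dotted lines mark 1 and -1. The medians of the meiosis, paternally imprinted and formative epiblast lists are near 0.5, and that of naive pluripotency is -0.40.

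Several formative epiblast genes were higher and a few naive genes lower in 1KO cells on day 2. Of 29 formative genes tested, 7 were higher and 0 lower, against 1.97% and 0.819% of all tested genes, and the median of 30 was 0.50. Lef1, a Wnt-responsive transcription factor, was at 3.73 FPKM in WT and 23.5 FPKM in 1KO cells. Fgf5, a growth factor of the epiblast, was at 2.52 and 14.7 FPKM, the kinase Pim2 at 29.3 and 106 FPKM, and Pou3f1, also known as Oct6, at 21.7 and 67.5 FPKM. Wnt8a, Sox3 and Sall2 were the others. The 1KO+1CI library was on the side of 1KO for all 7, for example with 16.7 FPKM for Fgf5 and 78.2 FPKM for Pou3f1. Otx2, a formative regulator, was at 31.2 and 41.9 FPKM, a difference of 0.42. On days 0 and 4 the list median was -0.18 and -0.17.

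Of 21 naive genes 3 were lower and 1 higher, where 0.819% and 1.97% of all tested genes were, with a median of -0.40, or -0.35 without the 2 on chromosome 8. Tfcp2l1, a naive transcription factor, was at 25.3 FPKM in WT, 9.40 FPKM in 1KO cells and 5.94 FPKM with 1KO+1CI, and the adhesion molecule Pecam1 at 28.6, 13.2 and 11.3 FPKM. Klf2 was called lower at -1.03 and Zfp42 (Rex1) was at -0.97, but both are on chromosome 8. Nanog was at 89.5 and 58.8 FPKM and Esrrb at 100.3 and 75.5 FPKM, neither past 1. Dppa3 and Klf4 were on the other side, at 1.03 and 0.72. Core pluripotency genes stayed close, with 0 calls among 19 and a median of -0.02. Pou5f1 (Oct4) was at 980 and 759 FPKM and Sox2 at 199 and 164 FPKM.

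Levels over time showed where these differences lay. In WT cells the naive list changed by a median of 0.06 from day 0 to day 2 and by -2.08 from day 2 to day 4, and in 1KO cells by -0.86 and -2.29. The formative list changed in WT cells by -0.05 and then 1.11, and in 1KO cells by 0.59 and then 0.31. Tfcp2l1 in WT cells was at 21.0, 25.3 and 1.32 FPKM on days 0, 2 and 4, and in 1KO cells at 22.6, 9.40 and 2.11 FPKM. Fgf5 in WT cells was at 6.97, 2.52 and 48.3 FPKM, and in 1KO cells at 3.66, 14.7 and 86.4 FPKM. With 1 culture per line and day, a difference in the pace of differentiation between lines and a difference between cultures cannot be told apart.

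**Figure D4:**
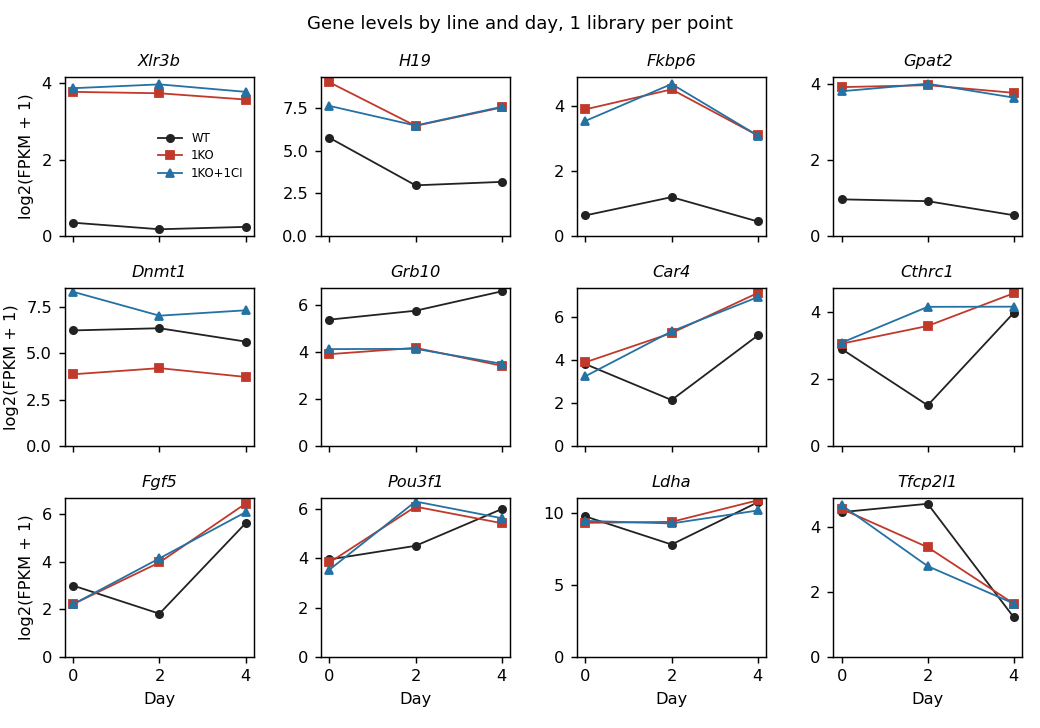
Level in log2(FPKM + 1) of 12 genes on days 0, 2 and 4 in WT, 1KO and 1KO+1CI cells, with 1 library per point. WT and 1KO levels of Xlr3b, Fkbp6 and Gpat2 are apart on every day. For Car4, Cthrc1, Fgf5 and Ldha the WT level of day 2 lies below the WT levels of days 0 and 4, and Car4 is also apart by over 1 on day 4.

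Most genes of glycolysis and the hypoxia response had positive differences on day 2. Of 31 tested, 2 were higher and 1 lower, beside 1.97% and 0.819% of all tested genes. The median of 32 was 0.40, or 0.37 without the 2 on chromosome 8. Of the 32, 13 were above 0.5, as were 987 of all 12211 tested genes. Ldha, which makes lactate, was at 222 FPKM in WT, 664 FPKM in 1KO cells and 615 FPKM with 1KO+1CI. Bnip3, a mitophagy receptor, was at 19.4, 51.6 and 52.5 FPKM. The glycolytic enzymes Tpi1 and Aldoa and the glucose transporter Slc2a1 were at 0.97, 0.88 and 0.94. Pfkm, the muscle-type phosphofructokinase, was lower at 37.0 and 17.7 FPKM. The list median was -0.55 on day 0 and 0.12 on day 4. In WT cells the list changed by a median of -0.91 from day 0 to day 2 and of 0.93 from day 2 to day 4. Ldha in WT cells was at 862, 222 and 1706 FPKM on the 3 days, and in 1KO cells at 633, 664 and 1878 FPKM. The culture state behind the WT library of day 2 was not measured, and its part was not tested.

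Of 123 genes higher by over 1 on day 2 and on neither other day, 23 (18.7%) had a WT level on day 2 that was under the WT levels of days 0 and 4 by over 1, a pattern found in 1.35% of all tested genes. Of 80 genes lower on day 2 alone, 17 (21.25%) had a WT level above both other days by over 1, against 1.27%. Of the 123 higher genes, 4 had a 1KO level above both other 1KO days by over 1, against 55 of all 12211 tested genes, and 5 of the 80 lower genes had a 1KO level under both, against 50. Of the 118 genes higher on day 2 and another day, 9 (7.63%) had the WT level of day 2 under both other WT days by over 1. The calls use the same WT and 1KO libraries of day 2, and the choice of genes called on day 2 alone also uses days 0 and 4. Both by themselves raise such shares, so no conclusion on the WT library of day 2 was drawn.

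Of mesoderm and endoderm lineage markers, 11 of 20 primitive streak and 7 of 19 primitive endoderm genes reached 1 FPKM in either library. Calls in these lists were set beside 1.97% higher and 0.819% lower of all tested genes. In the primitive streak (PS) list 0 of 11 tested genes were higher and 1 was lower, the BMP antagonist Nog at 1.26 and 0.10 FPKM, and the median of 20 was 0.21. T (Brachyury) was at 0.28 and 0.49 FPKM, from 14 and 21 reads, and Mixl1 at 0.23 and 0.54 FPKM. Bmp4 was at 18.5 and 8.84 FPKM, a difference of -0.99. Of 7 tested primitive endoderm (PrE) genes 0 were called. Over 19 members the median was 0.12, from -0.69 to 0.89, with 13 above 0 and 5 below. Their summed level was 664 FPKM in WT and 428 FPKM in 1KO cells. Gata6, the PrE master regulator, was at 0.21 FPKM in WT and 1.18 FPKM in 1KO cells, from 16 and 79 reads, and Dab2 at 0.97 and 2.64 FPKM, while Gata4 was at 1.15 and 0.80 FPKM. Basement membrane genes gave 2 higher and 0 lower of 20 tested, with differences from -0.55 to 1.11. The 2 higher were Lama1 at 1.03 and 3.39 FPKM and the proteoglycan Srgn at 0.10 and 1.35 FPKM. Srgn reached 1 FPKM in 1KO cells alone. Among neural genes 0 of 5 tested were called, and Sox1, on chromosome 8, and Pax6 were at -0.37 and -0.81. In the trophoblast list Ascl2 was higher by 1.04 and Tfap2c lower at -1.25.

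Of feeder fibroblast markers, 23 of 25 were above 0, against 48.7% of all tested genes. Of 18 tested, 3 were higher and 0 lower, against 1.97% and 0.819% of all tested genes, and the median of 25 was 0.36. The summed level of the markers was 190.2 FPKM in WT and 186 FPKM in 1KO cells, of which the actin-binding protein Tagln had 115 and 68.7 FPKM. The matrix genes Mgp, Bgn and Col5a2 were at 2.41, 4.39 and 1.77 FPKM in WT and 8.86, 11.7 and 4.79 FPKM in 1KO cells. On day 0 the list median was 0.94 and on day 4 0.12. In bulk RNA, fewer cells of a type and less RNA per cell cannot be told apart. The part of feeder cells in other differences was not tested.

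Interferon and antigen presentation genes gave 6 higher and 0 lower of 29 tested, beside 1.97% and 0.819% of all tested genes. The median over 40 was 0.22, and 0.37 and 0.48 with pseudocounts of 0.1 and 0.01. H2-K1, a class I MHC heavy chain, was at 8.52 FPKM in WT and 39.9 FPKM in 1KO cells, H2-D1 at 6.22 and 18.8 FPKM, and the transcription factor Irf1 at 11.9 and 29.1 FPKM. Cxcl10, Ifi35 and Gbp2 were the others. Sensors of viral RNA differed in direction and none of those named here passed 1. Ifih1 (MDA5) was under 0.1 FPKM in both libraries and Ddx58 (RIG-I) was at -0.32. Oas1a, which makes the messenger that activates RNase L, went from 20 to 72 reads with a difference of 0.97, and Oas1g had 27 and 115 reads and 0.88. Oas3, of the same family, had 102 and 40 reads and a difference of -0.43. Of the 6 higher genes, 5 passed 1 on day 4 and 0 on day 0.

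Deep falls were fewer than rises, with 3 genes under -2 against 27 over 2. Of the 15 deepest, 7 were microRNA entries, which count reads over a hairpin in polyadenylated RNA and rest on few reads, such as Mir1668, on chromosome 8, with 36 in WT and 4 in 1KO cells, and 6 of the 15 lie on chromosome 8. Cd37, a tetraspanin of leukocytes, was at 8.56 FPKM in WT, 0.97 FPKM in 1KO cells and 0.96 FPKM with 1KO+1CI, a difference of -2.28. Its WT levels on days 0 and 4 were 2.19 and 0.54 FPKM, so the WT library of day 2 was the high one. The growth factor gene Fgf1 was at 3.88 and 0.56 FPKM, from 370 and 46 reads, a ratio of 0.144 (exact 95% interval 0.104 to 0.196). Zmat4, on chromosome 8, was at 6.25 and 1.12 FPKM, and its difference of -1.77 became -1.26 with the chromosome median subtracted. The semaphorin receptor Nrp2 was at 18.3 and 5.70 FPKM. Only Dnmt1 and Grb10 of the 15 were below -1 on all 3 days.

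Of 5 Y-linked genes 3 were higher by over 1, against 1.97% of all tested genes. Ddx3y, a helicase, was at 7.28 FPKM in WT and 25.3 FPKM in 1KO cells, Uba1y at 2.15 and 13.1 FPKM and Zfy1 at 0.28 and 2.81 FPKM, while Eif2s3y and Uty differed by 0.47 and 0.49. All 5 were above 0 on days 0 and 4 as well. In the Rhox cluster on the X chromosome Rhox1 was higher at 0.80 FPKM in WT and 3.80 FPKM in 1KO cells and Rhox13 at 0.69 and 3.38 FPKM, but Rhox5, Rhox6 and Rhox9 were at -0.12, -0.52 and -0.78, after 1.07, 2.54 and 2.03 on day 0.

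Calls in housekeeping groups and among the known repressors of retroviruses were set beside 1.97% higher and 0.819% lower of all tested genes. Cytosolic ribosomal protein genes had a median of -0.01 over 81. Of 80 tested there was 1 call each way, Rpl39l at 1.77 and Rps27a at -1.21. Oxidative phosphorylation genes had a median of 0.01 over 75. Of 74 tested, 2 were higher, the tissue-specific paralogues Ndufa4l2 and Cox7b2, and 0 lower. Polycomb genes (26 tested), p53 targets (31), the integrated stress response (23), cholesterol synthesis (23) and proliferation genes (29) had 0 calls. Their medians over all 28, 32, 24, 24 and 29 listed members were 0.03, -0.06, -0.12, 0.26 and 0.10. Of 21 ERV repressor genes 1 was higher, the zinc-finger gene Zfp600 at 11.5 and 35.0 FPKM, and Trim28, the corepressor of retroviral silencing, differed by 0.10. Sumo2, at 20.5 and 100.5 FPKM, and Rps27a belong to genes with many processed copies, so their values are uncertain where reads could be shared.

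Among repeat families with at least 10 copies, IAPEz-int and IAPLTR1_Mm, both parts of IAP elements, had the largest rises. The table held 38385 copies of 1042 families, of which 2204 (5.74%) were higher and 1952 (5.09%) lower by over 1 in 1KO cells, with no minimum level. The median over all copies was -0.05. IAPEz-int, the internal protein-coding part of the IAPEz element, had 426 listed copies. In WT cells they ran from 0.012 to 8.94 FPKM with a median of 0.51 FPKM, and in 1KO cells from 0.17 to 14.4 FPKM with a median of 4.53 FPKM. All but 1 of the copies were higher in 1KO cells, against 47% of all copies, and 368 (86.4%) passed 1, while 0 were lower by over 1. Mean FPKM over the copies rose from 0.79 to 4.70, a difference of 1.67 in log2(mean + 1), and was 4.62 in 1KO+1CI cells. Of the 368 copies, 365 also passed 1 on day 0 and 368 on day 4, with family differences of 2.24 and 3.53, where 4.9% of all copies were higher and 6.82% lower by over 1 on day 0, and 6.77% higher and 3.76% lower on day 4. Copies share sequence, library and possibly reads, so their number is no number of replicates. Of the copies higher by over 1 on day 2, IAPEz-int made up 16.7%.

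The LTRs that drive IAPs rose with them. IAPLTR1_Mm (76 copies) had a mean of 1.41 FPKM in WT, 5.12 FPKM in 1KO cells and 5.06 FPKM with 1KO+1CI, with 58 copies higher by over 1, and IAPLTR1a_Mm (25 copies) 0.40, 1.37 and 1.24 FPKM. IAPLTR2_Mm and IAPLTR2a differed less, at 0.53 and 0.22. The internal part IAP-d-int (17 copies) was at -0.02. Among other families with at least 10 copies, the largest rises were those of RLTR1B-int, a gammaretrovirus-like ERV1 element, with a mean of 7.57 and 14.3 FPKM over 49 copies, RLTR12BD_Mm at 0.59 over 11 copies and MMERVK10C-int at 0.58 over 92 copies. The median over copies was lower for the last 2 families, at 0.30 and 0.35. In RLTR1B-int 23 copies were higher and 0 lower by over 1, and copy dup28 was the largest, at 11.8 FPKM in WT, 102 FPKM in 1KO cells and 127 FPKM with 1KO+1CI. RLTR12BD_Mm had no copy past 1. ETn elements, which are also active ERVK elements, did not follow, since ETnERV-int and MMETn-int differed by -0.05 and -0.20 from high levels in WT cells, 33.3 and 74.0 FPKM. IAP copies were 443 of the 2204 copies that were higher by over 1 (20.1%) and 1.74% of all copies. ERVK copies outside IAP had 112 higher (4.52%) and 67 lower (2.71%) of 2476. Both shares were under those of all copies, 5.74% and 5.09%.

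Young LINE-1 elements lay on the other side of 0. L1Md_T, with 1477 copies, had a mean of 1.70 FPKM in WT, 1.10 FPKM in 1KO cells and 1.27 FPKM with 1KO+1CI, a difference of -0.37. The individual differences were small and in 1 direction, with 1344 copies below 0 and 133 above, against 53% of all copies below 0, but only 7 past -1. L1Md_A (997 copies) differed by -0.31 with 899 copies below 0, and L1Md_Gf (58 copies) by -0.41 with 54 below 0, which put it among the 6 families with the deepest fall beside RLTR15, L1MC2, RMER17D, L3b and RMER19C. These 5 have 10 to 26 copies each, and the median over copies of RMER17D was 0.14, against a level difference of -0.45. RLTR15 and RMER19C had level differences of -0.51 and -0.41 but medians over copies of -0.16 and -0.20. On days 0 and 4 L1Md_T was at -0.12 and -0.18. MERVL-int (169 copies) and its LTR MT2_Mm (145 copies), which mark the state of 2-cell embryos, were lower on day 2 at -0.24 and -0.23 but higher on day 0 at 0.49 and 0.39. In the SINE class, of 17374 copies 935 (5.38%) were higher and 1088 (6.26%) lower. B2_Mm1a stood out there with 100 higher and 16 lower of 660 copies and a median of 0.37.

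**Figure D5:**
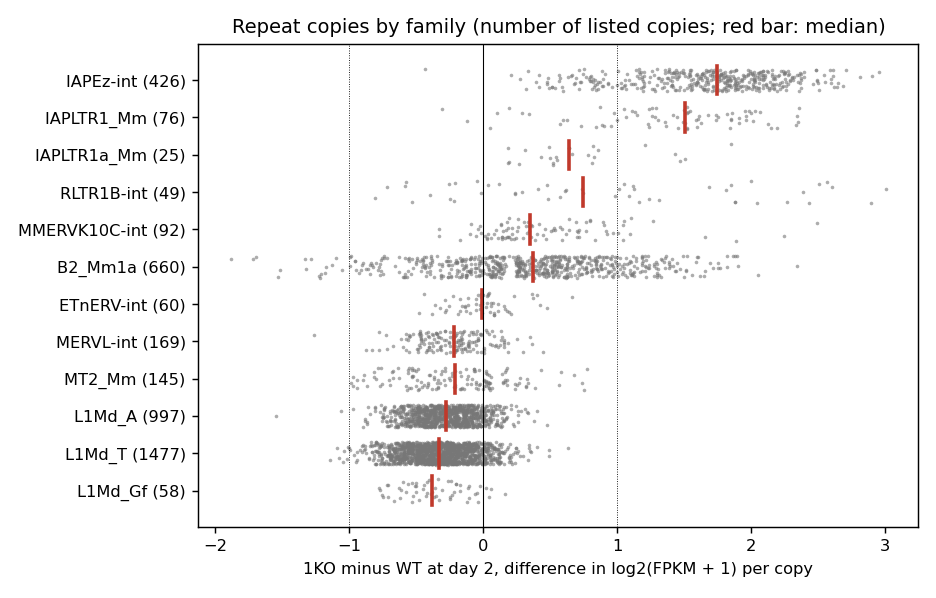
Difference on day 2, 1KO minus WT in log2(FPKM + 1), of each listed copy in 12 repeat families, with the number of copies in brackets and the family median as a red bar. Nearly all IAPEz-int copies lie to the right of 0, with a median of 1.75, and most L1Md_T copies lie slightly to the left, with a median of -0.33.

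The calls of day 2 were also set beside those of the other days. Of the 241 genes higher on day 2, 84 (34.9%) were higher by over 1 on day 0, 74 (30.7%) on day 4 and 40 (16.6%) on all 3 days. Of all tested genes 2.69% were higher by over 1 on day 0 and 2.05% on day 4. The 337 genes called higher on day 0 shared 24.9% with day 2 and the 251 called on day 4 shared 29.5%. Of the 100 lower genes 14 were lower by over 1 on day 0, 10 on day 4 and 4 on all 3 days, where 1.87% of all tested genes were lower on day 0 and 0.726% on day 4. In the 1KO+1CI library against the same WT library, 202 of the 241 were higher and 64 of the 100 lower by over 1, counts that share the WT library with the calls themselves.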

How the data were processed

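The authors trimmed paired-end reads of polyadenylated RNA, aligned them to mm10 with HISAT2 and deposited gene and repeat-copy levels in FPKM from HOMER. Trim Galore and SAMtools are also named in the submitters' processing notes. For versions, strand use and reads with several matches, the setting is "not given in the sources used here". Reads that match several copies can move levels between near-identical genes or repeat copies.

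Of 15095 gene entries 21 were left out, and 15074 were used. Differences are in log2(FPKM + 1), and calls need a difference over 1 or under -1 and, for genes, at least 1 FPKM in either library. Library depths were estimated from the steps of the deposited FPKM values in 1850 single-transcript genes, if 1 step is 1 read. Whole reads were then searched for in 3129 genes with any number of transcripts and recovered for 1186 of them. Those searched were list members and tested genes with a difference over 0.5 or under -0.5. Symbols, coordinates and promoters came from RefSeq (GRCm38.p6), with 15044 symbols matched. Python 3.11.15, pandas 2.3.3, scipy 1.17.1 and Biopython 1.88 were used, and scripts were tested on simulated data. Alternatives changed the pseudocount, minimum, threshold and scaling.

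The genes named are Dnmt1, the 15 largest rises and 15 deepest falls (summarised where many), members of each list past 1 or -1 (the 4 largest each way where there were over 8), its extremes, members whose role is explained, and the 6 repeat families at each end. Other names were chosen after their values were seen. Members and lists were chosen with earlier results of these data known.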

Additional observations from a re-analysis of the deposited data

Results flagged for a closer look

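9 genes passed 1 in one direction on day 2 and in the other on day 0 or day 4, in log2(FPKM + 1), 1KO minus WT. The differences between days were not tested, since each line has 1 library a day. Of genes higher on day 2, Bnip3 (1.37) was at -1.10 on day 0, Cxcl10 (1.16) at -1.33, Sall2 (1.10) at -1.09 and Gbp2 (1.05) at -1.73. The hemangioblast transcription factor gene Etv2 (1.53) was at -1.16 on day 4 and the phospholipase gene Pla2g10 (1.03) at -1.04. Of genes lower on day 2, the galectin gene Lgals9 (-1.12) was at 1.61 and Mir7069, on chromosome 8 (-1.82, or -1.31 with the chromosome median subtracted), at 1.51 on day 0, and Tfap2c (-1.25) was at 1.08 on day 4.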

How the results depend on the processing

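The 241 higher and 100 lower genes became 511 and 296 with a pseudocount of 0.1, 545 and 318 with 0.01, 987 and 1042 at a threshold of 0.5, and 27 and 3 at a threshold of 2. With a minimum of 5 FPKM 153 genes were higher. Without chromosome 8, an alternative chosen after seeing the data, 65 were lower, and with its median subtracted 251 were higher and 72 lower. The 2204 higher and 1952 lower repeat copies became 5321 and 5327 with a pseudocount of 0.1, 6014 and 6066 with 0.01, 6849 and 7546 at a threshold of 0.5, and 211 and 63 at a threshold of 2. The IAPEz-int level difference of 1.67 became 2.43 and 2.55 with those pseudocounts, and that of L1Md_T, -0.37, became -0.59 and -0.63. The RMER17D difference of -0.45 changed direction to 0.14 as a median over copies. Of the list medians under these alternatives, 268 values stayed close and 61 moved. Signs changed among those that moved for the primitive endoderm (0.12 to -0.13), two-cell stage (-0.16 to 0.31) and Mage (0.10 to -0.08) lists at a minimum of 5 FPKM, and with a mean in place of the median for the Rhox (-0.12 to 0.27), protocadherin (-0.09 to 0.06) and methyltransferase (-0.11 to 0.00) lists. No paired analysis was possible because each line has 1 library a day, and no library could be left out. Genes and copies with few reads limit the depth of any single value.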
